A study of Drosophila melanogaster with 15 samples.

Results

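The genes described here encode the machinery that brings new proteins into the endoplasmic reticulum and packs them into transport vesicles. They were chosen by symbol alone, as measured array rows annotated to exactly 1 gene whose symbol begins with Spase, Sec and a digit, Srp and a digit, SrpR, SsR or Ost, ends in COP, or is TRAM or twr. This gave 33 genes on 37 rows, out of 9894 named genes measured in the series. Of the 33, 31 were measured on at least 2 of the 3 arrays of every tissue and could be tested in all comparisons, and 27 had a value on all 15 arrays.

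A protein meant for secretion carries a signal peptide, which the signal recognition particle binds as it leaves the ribosome and delivers to a receptor on the endoplasmic reticulum. The chain then passes through the translocon, signal peptidase removes the signal peptide, and oligosaccharyltransferase attaches a preformed sugar tree to asparagines. COPII-coated vesicles carry folded cargo to the Golgi, COPI-coated vesicles return escaped proteins, and the exocyst tethers Golgi-derived carriers to the plasma membrane. The larval salivary gland of the fly is known for making large amounts of secreted glue protein before pupariation.

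RNA came from wild-type Drosophila melanogaster of the Canton S strain, about 18 hours before pupariation. The 5 groups were salivary gland, midgut, central nervous system, wing imaginal disc, and epidermis with the muscle attached to it, and 3 independent samples of each filled 3 arrays. Every array set amplified tissue RNA in the Cy5 dye against a whole animal reference of the same stage in Cy3, with no dye swap. Each value is thus the log2 of tissue over reference, centred on the array's median, and 1 unit is a doubling. The samples are whole dissected organs, so fewer cells of a type and less RNA per cell cannot be told apart. Array number limits the precision of every value.

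Between 7747 and 13505 rows were measured per array, with both extremes in epidermis. Correlations between arrays of 1 tissue ran from 0.69 in epidermis to 0.92 in wing disc. The tissue labels were checked against markers. The highest mean lay in the labelled tissue for 6 of 6 tested salivary gland genes, 6 of 6 muscle genes and 5 of 5 epidermis genes. It also did for 10 of 10 midgut, 5 of 5 nervous system and 3 of 3 wing disc genes. The wing disc list held 9 genes with 8 measured, and the nervous system list 9 with 6 measured. Of those measured but not tested, vg, nub and Doc1 averaged highest in wing disc, but ap and en did not. The untested nervous system gene Rdl read -0.45 and -0.36 there and 0.79 and 0.42 in gland. Among the 9 listed markers of the fat body, an organ that borders the gland, 5 were tested, all 5 were highest in the salivary gland arrays, and 4 of them passed the test there. The median of the fat body list was 0.06, -0.44 and -1.92 on gland replicates 1, 2 and 3, against -3.93 to -1.83 on the other arrays. Among its defining genes, the storage protein gene Lsp2 averaged -0.03, Fbp2 -0.31, Fbp1 -0.65 and the lipoprotein gene apolpp -2.71 in the gland relative to whole animal. The markers did not all follow the list median over the gland replicates. Lsp2, Fbp1, apolpp and Col4a1 were lowest on replicate 3, Fbp2 was highest there (-0.27, -0.44 and -0.22), and Yp1 was not measured there. Of 6 tested hemocyte markers, 0 passed in the gland under limma, and their list median lay between -2.22 and -0.88 there.

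Levels differed among the 5 tissues in 18 of the 31 tested genes by limma's F test, or 58.1%, against 44.5% of all features. In the salivary gland 18 genes were higher than the mean of the other 4 tissues and 0 were lower. Of all 8432 features, 7.72% were called higher there, 10.3% lower and 18% in either direction. The median gland difference of the 31 genes was log2 1.22, and that of all features was -0.07. The midgut had 12 genes lower and 0 higher, where 15.5% of features were called lower and 14.2% higher. In the central nervous system 4 genes were lower and 1 higher, against 10.2% and 12% of features. The means behind the midgut and nervous system counts include the high gland. In the direct comparisons without the gland, given below, the midgut was lower for at most 8 of 31 genes. In epidermis and wing disc limma called 0 genes, and 2 in each had an unadjusted p under 0.05, while 11.7% and 19.8% of all features were called there. Calls are limma tests with Benjamini-Hochberg adjustment over all features and a threshold of 0.05, and errors after a difference are standard errors.

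**Figure D1:**
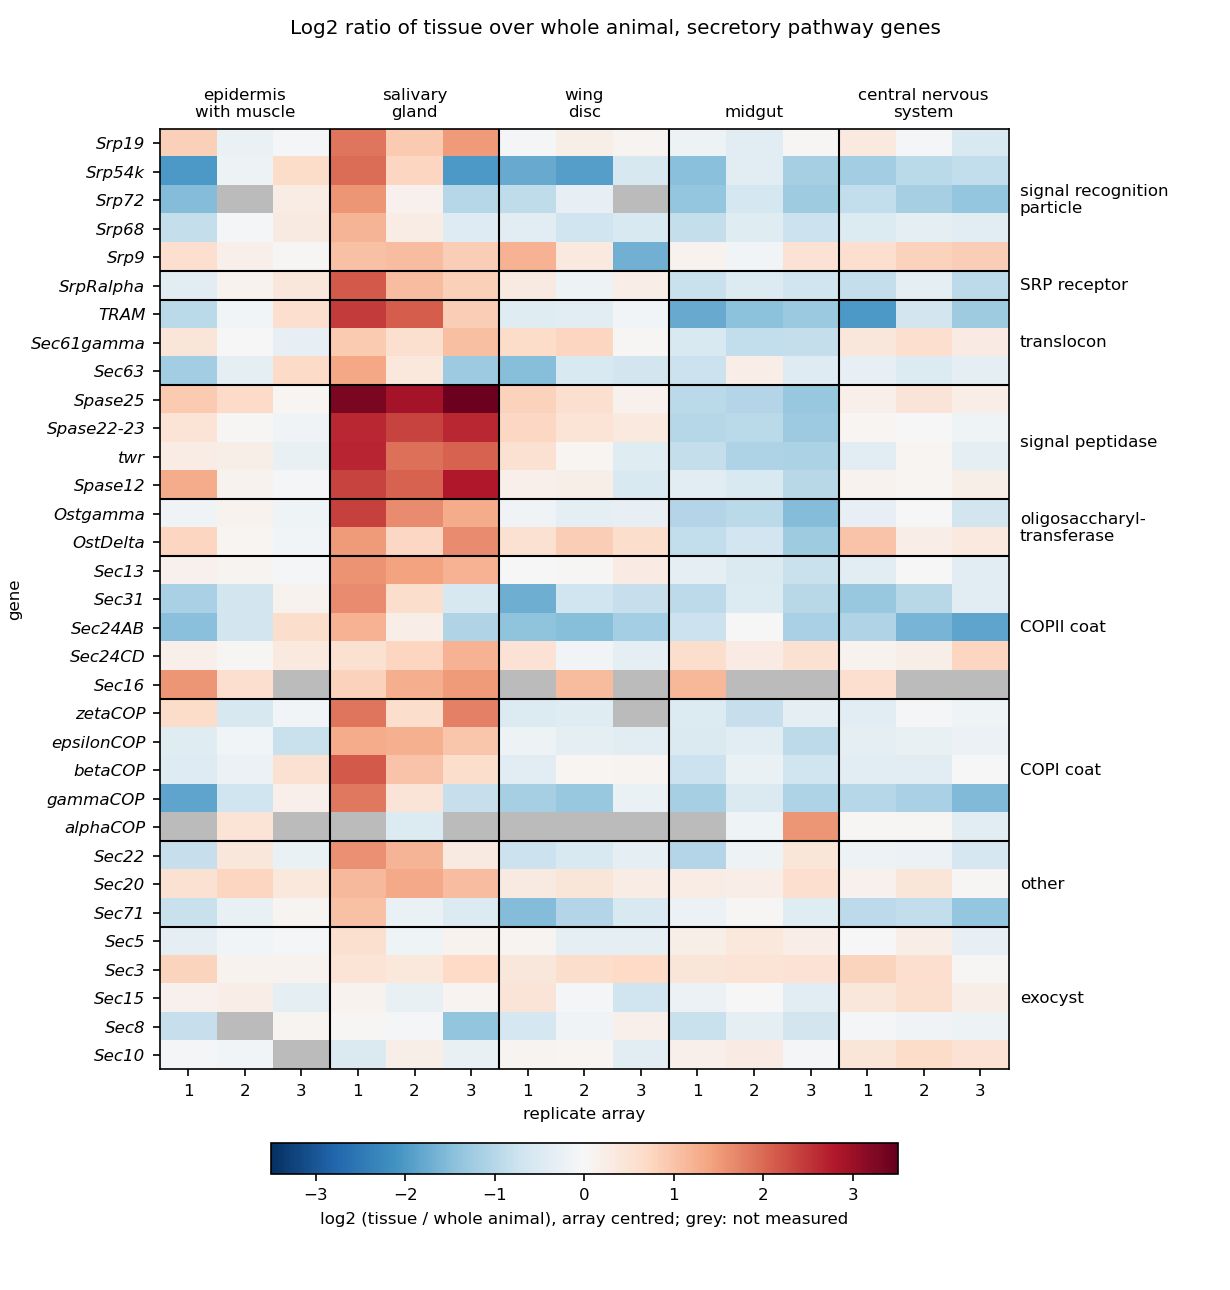
Tissue over whole animal, in log2, for all 33 genes (rows, grouped by role) on the 15 arrays (columns, 3 per tissue), with red above and blue below whole animal and grey where a gene was not measured. The signal peptidase rows are red on all 3 gland arrays and blue on all 3 midgut arrays, while several other rows change colour from gland replicate 1 to replicate 3.

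By role median, the signal peptidase genes had the largest differences in gland and in midgut. All 4 measured genes of the complex were higher in the gland than in the other 4 tissues, by a median of log2 2.58, and all 4 were lower in the midgut, by a median of -1.70. Spase25, a noncatalytic subunit, read 3.29, 2.92 and 3.44 in gland, 0.91, 0.68 and 0.07 in epidermis, 0.80, 0.56 and 0.15 in wing disc, 0.19, 0.46 and 0.23 in the nervous system and -0.93, -1.03 and -1.33 in midgut. Every gland array thus lay above all other arrays and every midgut array below them. The gland difference was 3.15 (SE 0.20, adjusted p = 1.85e-08), or 8.9-fold, and the midgut difference was -2.24 (SE 0.20, adjusted p = 3.25e-07).

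The partner subunit gene Spase22-23 behaved alike. Its values were 2.63, 2.36 and 2.65 in gland, 0.47, 0.04 and -0.14 in epidermis, 0.71, 0.47 and 0.35 in wing disc, 0.06, -0.02 and -0.15 in the nervous system and -0.99, -0.93 and -1.27 in midgut. The gland group and the midgut group again did not overlap any other tissue. It was higher in the gland by 2.66 (SE 0.17, adjusted p = 1.74e-08) and differed in the midgut by -1.85 (SE 0.17, adjusted p = 3.78e-07). Its nervous system difference of -0.57 (SE 0.17, adjusted p = 0.0242) was small, and the call was lost without nervous system replicate 2 (adjusted p = 0.0745) or 3 (adjusted p = 0.109). That call was also lost with arrays scaled to a common spread (adjusted p = 0.0872) and with quantile normalization (adjusted p = 0.109). The mean behind it includes the high gland. Directly, the nervous system was 0.16 below epidermis (adjusted p = 0.705, limma) and 1.03 above the midgut (adjusted p = 0.00168). Nor was it called lower than wing disc.

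The gene twr encodes the catalytic subunit of the peptidase. It read 2.68, 1.94 and 2.05 in gland, 0.25, 0.21 and -0.26 in epidermis, 0.53, 0.07 and -0.44 in wing disc, -0.40, 0.07 and -0.35 in the nervous system and -0.84, -1.09 and -1.11 in midgut. Gland arrays were the highest and midgut arrays the lowest of all 15. The gland difference was 2.50 (SE 0.22, adjusted p = 7.34e-07) and the midgut difference -1.54 (SE 0.22, adjusted p = 4.69e-05).

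Spase12, the smallest of the 4 gland differences, read 2.37, 2.05 and 2.81 in gland, 1.30, 0.13 and -0.03 in epidermis, 0.18, 0.20 and -0.53 in wing disc, 0.13, 0.06 and 0.20 in the nervous system and -0.36, -0.52 and -0.97 in midgut. The gland arrays stood clear of the rest, whereas the midgut range overlapped the lowest wing disc array. The gland difference was 2.43 (SE 0.26, adjusted p = 7.53e-06) and the midgut difference -1.35 (SE 0.26, adjusted p = 0.000813). The highest gland value was on replicate 3, where the fat body median was lowest, for Spase25, Spase22-23 and Spase12, and on replicate 1, where it was highest, for twr. Without gland replicate 1 the median gland difference of the 4 genes was 2.53, and all 4 passed. The part of fat body RNA in these values was not tested.

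**Figure D2:**
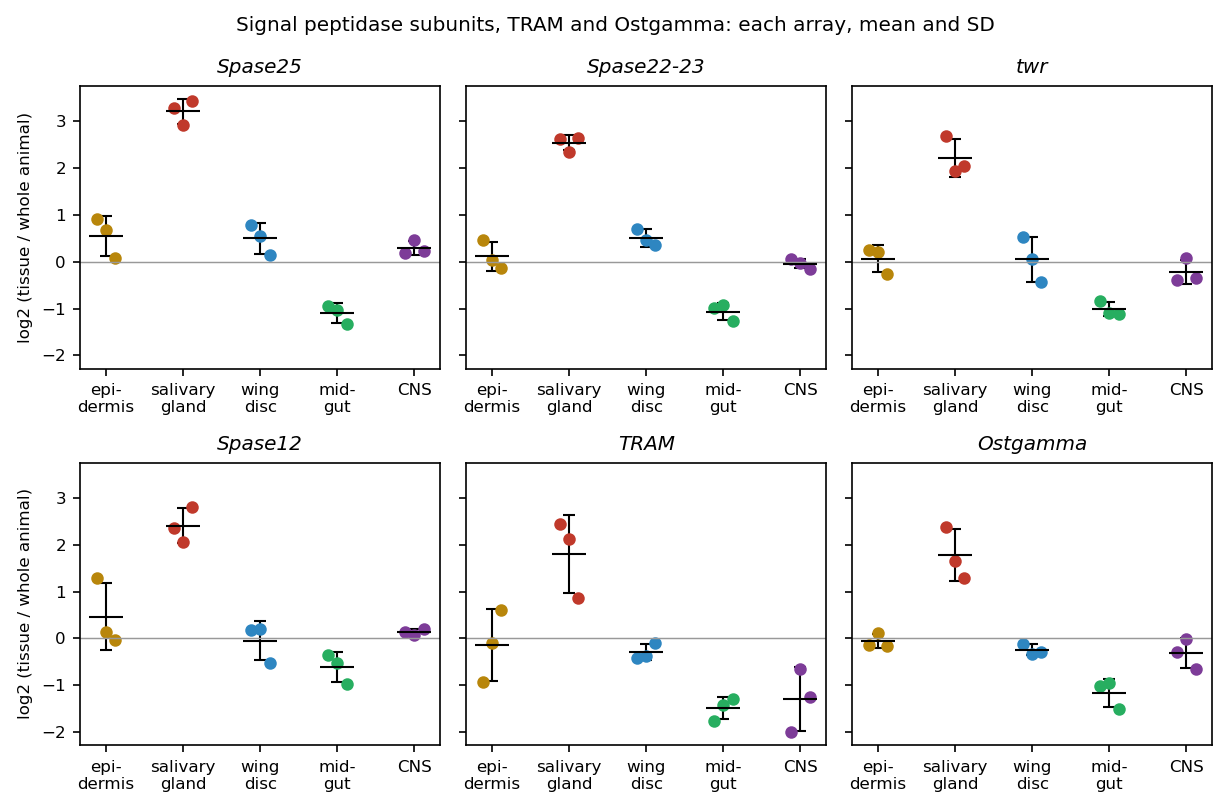
Tissue over whole animal (vertical axis, log2) for the 4 signal peptidase genes, TRAM and Ostgamma in the 5 tissues. Points are arrays, and bars give mean and SD over 3 arrays. In each of the 6 panels all gland points lie above every other point.

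The signal recognition particle showed a weaker and less even gland difference. Of 5 tested protein subunits, 1 passed as higher in the gland and 0 as lower, with a median of 1.08, and 0 passed in the midgut (1 at an unadjusted p under 0.05). Srp19, which helps assemble the particle, read 1.88, 0.91 and 1.49 in gland, 0.83, -0.22 and -0.04 in epidermis, -0.06, 0.20 and 0.10 in wing disc, 0.35, -0.08 and -0.52 in the nervous system and -0.18, -0.36 and 0.05 in midgut. Its gland arrays lay above all others, and the difference was 1.42 (SE 0.25, adjusted p = 0.000713).

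Srp9, a subunit of the domain that pauses translation, had the smallest gland difference of the particle, 0.70 (SE 0.38, adjusted p = 0.238). Its arrays read 1.03, 1.08 and 0.85 in gland, 0.59, 0.18 and 0.05 in epidermis, 1.21, 0.35 and -1.68 in wing disc, 0.58, 0.82 and 0.87 in the nervous system and 0.11, -0.11 and 0.51 in midgut. The gland overlapped the nervous system and the wing disc, whose replicates were far apart.

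Srp54k, the subunit that binds the signal peptide, is given because its replicates disagreed most, and it was picked after its values were seen. Gland replicates read 1.95, 0.76 and -2.01 and epidermis replicates -2.0, -0.18 and 0.64, while wing disc read -1.76, -1.94 and -0.55. Gland values therefore spanned the whole range of the other tissues. Its gland difference was 1.22 (SE 0.61, adjusted p = 0.198), with Srp72 at 1.08 (SE 0.44, adjusted p = 0.106) and Srp68 at 0.78 (SE 0.27, adjusted p = 0.0593). Without gland replicate 3 the count of particle genes called higher went from 1 to 4, and Srp54k stood at 2.34 (adjusted p = 0.00653). Without gland replicate 1 the count stayed at 1, and the median of the 5 genes went from 1.08 to 0.43. The fat body median was also lowest on gland replicate 3, though the marker Fbp2 read highest there. The part of fat body RNA in these values was not tested.

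SrpRalpha encodes a GTPase subunit of the receptor that docks the particle. It read 2.16, 1.09 and 0.83 in gland, -0.39, 0.13 and 0.38 in epidermis, 0.31, -0.19 and 0.24 in wing disc, -0.82, -0.33 and -0.93 in the nervous system and -0.78, -0.47 and -0.70 in midgut. Gland arrays lay above all others, and midgut and nervous system shared the low end. It rose in the gland by 1.66 (SE 0.25, adjusted p = 0.000228). It was lower in the midgut by log2 -0.86 (SE 0.25, adjusted p = 0.0156) and in the nervous system by log2 -0.91 (SE 0.25, adjusted p = 0.0156). The midgut call was lost without midgut replicate 1 (adjusted p = 0.0682) or 3 (adjusted p = 0.0617), and the nervous system call without nervous system replicate 1 (adjusted p = 0.0619) or 3 (adjusted p = 0.0911).

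Of 3 translocon genes, 2 passed as higher in the gland and the same 2 as lower in the midgut. TRAM, a membrane protein that contacts the chain inside the translocon, read 2.44, 2.13 and 0.86 in gland, -0.94, -0.10 and 0.60 in epidermis, -0.41, -0.38 and -0.10 in wing disc, -2.01, -0.65 and -1.25 in the nervous system and -1.76, -1.43 and -1.30 in midgut. Gland arrays were above all others, and midgut and nervous system overlapped at the bottom. TRAM differed by 2.62 in gland (SE 0.34, adjusted p = 5.38e-05), by -1.51 in midgut (SE 0.34, adjusted p = 0.00268) and by -1.27 in the nervous system (SE 0.34, adjusted p = 0.0131). The last of these calls was lost without nervous system replicate 1 (adjusted p = 0.0998) and with quantile normalization (adjusted p = 0.0738). It was also lost with arrays scaled to a common spread (adjusted p = 0.0521).

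Sec61gamma, a small subunit of the channel itself, had a modest gland difference and a clear midgut one. It read 0.93, 0.56 and 1.05 in gland, 0.43, 0.02 and -0.28 in epidermis, 0.63, 0.75 and 0.05 in wing disc, 0.41, 0.58 and 0.28 in the nervous system and -0.53, -0.86 and -0.82 in midgut. Gland arrays overlapped wing disc and nervous system, while midgut arrays lay below all others. The midgut difference was -1.19 (SE 0.20, adjusted p = 0.000195). The gland difference of 0.79 (SE 0.20, adjusted p = 0.00971) lost its call without gland replicate 1 (adjusted p = 0.056) or 3 (adjusted p = 0.0581).

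Sec63, a channel partner that recruits the lumenal chaperone, did not pass in any tissue. It read 1.34, 0.37 and -1.27 in gland, -1.22, -0.35 and 0.66 in epidermis, -1.50, -0.54 and -0.63 in wing disc, -0.28, -0.48 and -0.33 in the nervous system and -0.75, 0.22 and -0.45 in midgut. Its gland replicates ran from the highest value of all arrays to the lowest but 1. Its gland difference was 0.62 (SE 0.43, adjusted p = 0.364), and 1.32 (adjusted p = 0.0352) without gland replicate 3. Without gland replicate 1 it did not pass.

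Both measured subunit genes of oligosaccharyltransferase were higher in the gland and lower in the midgut. Ostgamma read 2.39, 1.66 and 1.29 in gland, -0.13, 0.12 and -0.16 in epidermis, -0.12, -0.34 and -0.28 in wing disc, -0.29, -0.01 and -0.65 in the nervous system and -1.03, -0.95 and -1.52 in midgut. Gland arrays lay above and midgut arrays below all others. The differences were 2.23 in gland (SE 0.22, adjusted p = 2.56e-06) and -1.46 in midgut (SE 0.22, adjusted p = 7.51e-05).

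OstDelta read 1.48, 0.71 and 1.64 in gland, 0.75, 0.06 and -0.09 in epidermis, 0.54, 0.87 and 0.61 in wing disc, 1.0, 0.22 and 0.35 in the nervous system and -0.86, -0.66 and -1.25 in midgut. Here the midgut stood apart from every array, and the gland overlapped wing disc, epidermis and nervous system. Its midgut difference of -1.60 (SE 0.24, adjusted p = 7.83e-05) was larger in size than its gland difference of 1.15 (SE 0.24, adjusted p = 0.00302).

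**Figure D3:**
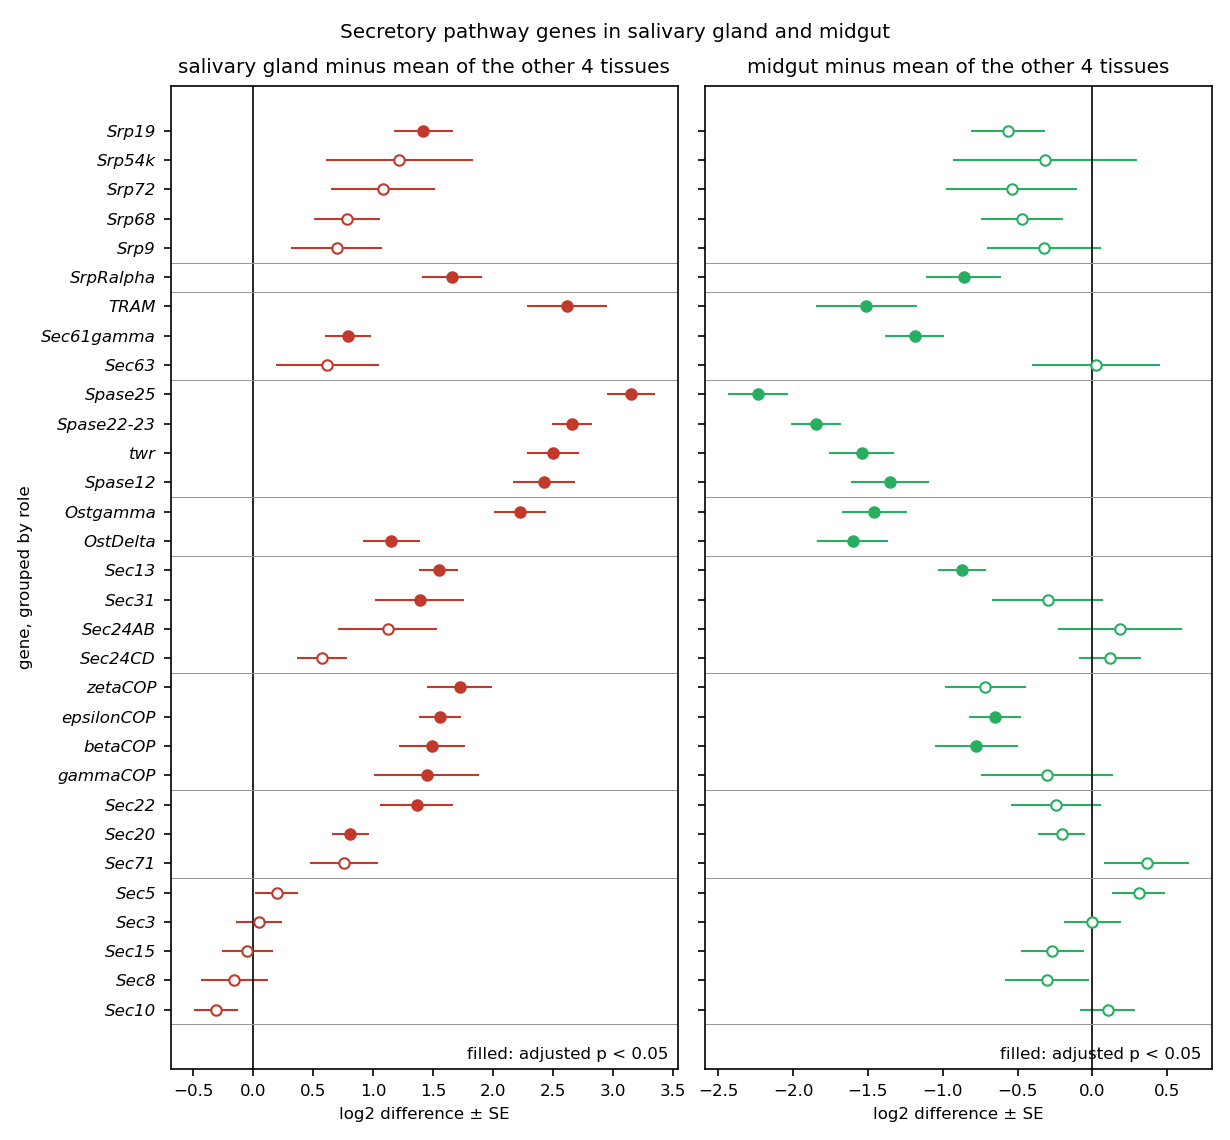
Difference of the gland (left) and the midgut (right) from the mean of the other 4 tissues, in log2 with standard errors, for the 31 tested genes grouped by role from the signal recognition particle (top) to the exocyst (bottom). Filled points passed the adjusted threshold. The gland panel has 18 filled points, all to the right of 0, the midgut panel has 12, all to the left, and the 5 exocyst genes at the bottom are open in both.

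Among 4 tested COPII coat genes, 2 were higher in the gland and 0 lower, and 1 was lower in the midgut. Sec13, part of the outer cage, read 1.56, 1.40 and 1.22 in gland, 0.15, 0.10 and -0.06 in epidermis, -0.02, 0.04 and 0.28 in wing disc, -0.37, 0.02 and -0.39 in the nervous system and -0.35, -0.50 and -0.79 in midgut. Its gland replicates were tight and above all other arrays. Sec13 was higher in gland by 1.55 (SE 0.16, adjusted p = 6.24e-06), and differed by -0.87 in midgut (SE 0.16, adjusted p = 0.000668) and -0.50 in the nervous system (SE 0.16, adjusted p = 0.0377). The nervous system call was lost without replicate 1 of the nervous system (adjusted p = 0.136) or 3 (adjusted p = 0.166), and, at adjusted p of 0.0502 to 0.0628, without gland replicate 1, wing disc replicate 3 or midgut replicate 1 or 2. Processing mattered too, and the call was lost without centring (adjusted p = 0.0807), with a common spread (0.0773) and with quantile normalization (0.0751). The mean behind that call includes the high gland. Directly, the nervous system was 0.31 below epidermis (adjusted p = 0.379, limma) and 0.30 above the midgut (adjusted p = 0.332).

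Sec31, its partner in the outer cage, passed in the gland at 1.39 (SE 0.37, adjusted p = 0.0153), but its replicates there read 1.65, 0.62 and -0.57. The call was lost without gland replicate 1, when the difference was 0.85 (adjusted p = 0.169), and without replicate 2 (adjusted p = 0.0508). The cargo adaptor gene Sec24AB, at 1.22, 0.22 and -1.05 in gland, stood at 1.12 (SE 0.41, adjusted p = 0.0714). It passed at 1.72 without gland replicate 3 (adjusted p = 0.0112) but did not pass without replicate 1.

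Sec24CD, the other cargo adaptor, had the smallest gland difference of the coat, 0.57 (SE 0.21, adjusted p = 0.0697). Its values, averaged over its rows, were 0.52, 0.75 and 1.22 in gland, 0.18, 0.03 and 0.34 in epidermis, 0.52, -0.10 and -0.35 in wing disc, 0.13, 0.21 and 0.74 in the nervous system and 0.61, 0.27 and 0.52 in midgut, so the tissues overlapped. The 3 rows that could be tested disagreed, with gland differences of 1.81 (adjusted p = 0.000234), 0.16 (adjusted p = 0.824) and -0.49 (adjusted p = 0.251). Its average is therefore uncertain. Sec16, a scaffold of the exit sites where the coat forms, was measured on 8 arrays, at 0.82, 1.26 and 1.50 in gland, 1.54 and 0.58 in epidermis, and on 1 array each of wing disc (1.12), midgut (1.16) and nervous system (0.60). Among tissues it could be compared only between gland and epidermis, where the ranges overlapped.

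All 4 tested COPI coat genes were higher in the gland, by a median of 1.53, and 2 of them were lower in the midgut. zetaCOP read 1.88, 0.61 and 1.77 in gland, 0.63, -0.57 and -0.09 in epidermis, -0.49 and -0.44 on 2 wing disc arrays, -0.39, -0.08 and -0.14 in the nervous system and -0.48, -0.81 and -0.30 in midgut. The lowest gland array fell just under the highest epidermis array. Its difference of 1.72 (SE 0.27, adjusted p = 0.000415) was the largest of the coat. epsilonCOP followed at 1.56 (SE 0.17, adjusted p = 1.19e-05), with gland values of 1.29, 1.24 and 0.96 above every other array.

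betaCOP, at 2.15, 1.0 and 0.60 in gland, was higher by 1.49 (SE 0.28, adjusted p = 0.00132). Its 2 rows gave gland differences of 1.36 (adjusted p = 0.000966) and 1.69 (adjusted p = 0.00547). gammaCOP, the least of the 4, read 1.84, 0.44 and -0.82 in gland, -1.85, -0.70 and 0.19 in epidermis, -1.16, -1.32 and -0.25 in wing disc, -0.99, -1.14 and -1.55 in the nervous system and -1.15, -0.50 and -1.08 in midgut. Its gland range overlapped every tissue except the nervous system. In the gland it differed by 1.45 (SE 0.44, adjusted p = 0.0316), and by 0.77 (adjusted p = 0.292) without gland replicate 1, and the call was also lost without replicate 2 (adjusted p = 0.0745).

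Midgut betaCOP differed by -0.78 (SE 0.28, adjusted p = 0.0439) and epsilonCOP by -0.65 (SE 0.17, adjusted p = 0.00939). The betaCOP call did not survive with the array values as deposited, without centring (adjusted p = 0.0544), nor without midgut replicate 1 (adjusted p = 0.153) or 3 (adjusted p = 0.152). With its 2 rows kept separate neither passed (adjusted p = 0.0573 and 0.111). It was also lost, at adjusted p of 0.0509 to 0.0606, without epidermis replicate 3, wing disc replicate 2 or 3 or nervous system replicate 2 or 3. The epsilonCOP call was lost without midgut replicate 3 (adjusted p = 0.0806). Directly, midgut epsilonCOP was 0.17 below epidermis (adjusted p = 0.7, limma) and midgut betaCOP 0.29 below the nervous system (adjusted p = 0.607). alphaCOP was measured on 7 arrays, at -0.47 on 1 gland array, 0.49 on 1 epidermis array, -0.15 and 1.54 in midgut and 0.05, 0.04 and -0.38 in the nervous system. Its 2 midgut arrays were far apart, and no comparison with the gland was made.

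Of the 3 other matching genes, 2 passed in the gland. Sec22, a membrane fusion protein (SNARE) of transport between endoplasmic reticulum and Golgi, read 1.59, 1.18 and 0.33 in gland, -0.79, 0.41 and -0.23 in epidermis, -0.76, -0.54 and -0.32 in wing disc, -0.18, -0.21 and -0.60 in the nervous system and -1.01, -0.17 and 0.43 in midgut. Only gland replicate 3 overlapped other tissues. The gland difference was 1.36 (SE 0.30, adjusted p = 0.00489) and lost its call without gland replicate 1 (adjusted p = 0.0571). The SNARE gene Sec20 was higher by 0.81 (SE 0.16, adjusted p = 0.00197), with its 3 gland arrays above all others.

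Sec71, an exchange factor that activates Arf GTPases at the Golgi, had the least gland difference of these 3, 0.75 (SE 0.28, adjusted p = 0.0777). It read 1.01, -0.22 and -0.47 in gland, -0.77, -0.27 and 0.10 in epidermis, -1.51, -1.04 and -0.53 in wing disc, -0.91, -0.85 and -1.35 in the nervous system and -0.22, 0.04 and -0.43 in midgut. Only gland replicate 1 stood above the other tissues. The difference was 1.04 (adjusted p = 0.0377) without gland replicate 3, and it did not pass without replicate 1.

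The exocyst genes did not share the gland pattern. Of 5 tested, limma called 0 in the gland, with 0 at an unadjusted p under 0.05, and the median difference was -0.05, against -0.07 over all features. They were also the only 5 of the 31 genes whose highest mean lay outside the gland, namely in the nervous system for Sec8, Sec10 and Sec15, in the wing disc for Sec3 and in the midgut for Sec5. In the other 26 genes the gland had the highest mean, against 19.5% of all features. The difference between the exocyst and the other roles was not tested.

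Sec5 had the largest gland difference among the exocyst genes, 0.19 (SE 0.18, adjusted p = 0.514). Its arrays read 0.55, -0.15 and 0.13 in gland, -0.30, -0.10 and -0.07 in epidermis, 0.11, -0.32 and -0.31 in wing disc, 0.03, 0.24 and -0.30 in the nervous system and 0.20, 0.37 and 0.24 in midgut. All tissues overlapped the gland.

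Sec10 had the lowest, -0.31 (SE 0.18, adjusted p = 0.272). It read -0.51, 0.20 and -0.26 in gland, -0.08 and -0.09 on 2 epidermis arrays, 0.09, 0.06 and -0.41 in wing disc, 0.43, 0.64 and 0.51 in the nervous system and 0.17, 0.29 and -0.03 in midgut. The nervous system arrays lay above all others. Sec10 was higher there by 0.58 (SE 0.18, adjusted p = 0.0335), a call lost without any 1 of the 3 nervous system arrays (adjusted p = 0.0606 to 0.13). A common spread (adjusted p = 0.063) and quantile normalization (adjusted p = 0.0573) also lost that call. The direct difference of gland from nervous system for Sec10 was -0.72 (SE 0.23, adjusted p = 0.0385). In the gland Sec8 differed by -0.16 (SE 0.28, adjusted p = 0.763), Sec15 by -0.05 (SE 0.21, adjusted p = 0.905) and Sec3 by 0.05 (SE 0.19, adjusted p = 0.898). Sec3 varied little, with tissue means from 0.33 to 0.58 log2 above whole animal.

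The mean of the other 4 tissues includes the midgut where the gland is tested and the gland where the midgut is tested. Both were therefore also set against each tissue in turn. The gland was higher for 14 of 32 genes against epidermis (3.8% of features), 17 of 31 against wing disc (8.28%), 16 of 31 against midgut (6.23%) and 18 of 31 against the nervous system (7.73%). Sec10 was the 1 gene lower in the gland in any of these 4 comparisons, against the nervous system (11.5% of features lower). The count against epidermis depended on gland replicate 1, without which it was 8. The midgut was lower for 8 of 31 genes (25.8%) against epidermis (7.92% of features) and 7 of 31 (22.6%) against wing disc (12.1%). Against the nervous system it was lower for 6 of 32 (18.8%), near the share of all features (14.3%).

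Ordering the 5 tissue means of each gene gave a top step, from the highest tissue to the next, that passed the test in 13 of 31 genes. In each of these 13 the highest tissue was the gland. The bottom step passed in 6 genes, OstDelta, Ostgamma, Sec61gamma, Spase22-23, Spase25 and twr, and each time the lowest tissue was the midgut. The order was set by the same means that were then tested. The share of all features past each step was not counted, so the step counts have no background to be read against. The midgut had the lowest mean in 16 genes (26.4% of features). The steps between passed in 0 genes, and the direct comparisons among epidermis, wing disc and nervous system called 0 genes under limma, where 11.1% (epidermis and wing disc), 15.4% (epidermis and nervous system) and 5.53% (wing disc and nervous system) of features were called. At an unadjusted p under 0.05 the counts were 0, 3 and 4. Arrays of the gland lay above all other arrays in 12 genes (4.28% of features), and midgut arrays below all others in the same 6 genes (3.82%).

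Against whole animal, where the reference's own spread and any dye effect are not removed, the gland had 20 of 32 genes higher and 0 lower (16.9% of features higher). Spase25 was highest in this comparison too, at 3.22 (SE 0.18, adjusted p = 1.07e-08), and Sec16 passed at 1.19 (SE 0.23, adjusted p = 0.00386), as it did in epidermis at 1.06 (SE 0.28, adjusted p = 0.0226). The midgut had 11 genes lower (15.1%) and 1 higher (13.7%), Sec3 at 0.47 (SE 0.17, adjusted p = 0.0467). The nervous system had 7 lower (21.3%) and 2 higher (19.8%), Sec10 and Sec3. The wing disc had 5 higher (18.4%) and 3 lower (20.6%), the latter being Sec24AB, Sec31 and Sec71, and epidermis had 3 higher (12.1%). Sec3, an exocyst gene, was also called above whole animal in gland at 0.51 (SE 0.17, adjusted p = 0.0285) and in wing disc at 0.58 (SE 0.17, adjusted p = 0.0131), so 4 tissues in all. These comparisons share the same kind of reference with those above and are not independent of them.

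Replicates of these genes differed more than those of most features in the gland. In 15 of 31 genes (48.4%) the gland arrays spanned more than log2 1, against 19.9% of features, and in 6 genes they spanned more than log2 2. Elsewhere a span over log2 1 was found for 12 genes in epidermis, 5 in wing disc, 1 in the nervous system and 3 in midgut. Over all features the median SD was largest in epidermis, at 0.37, with 0.33 in gland. For the genes described here it was largest in gland, at 0.49, with 0.43 in epidermis and 0.23 to 0.27 in the other tissues. Shares of all features were not counted for the spans outside the gland or for the span over log2 2. Of the 15 wide genes 8 passed in the gland, and of the 16 narrow genes 10 passed.

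The wide gaps ran in a set direction, which was looked at after the values were seen. In 16 genes gland replicate 1 was highest and replicate 3 lowest, and in 12 of these epidermis replicate 3 was highest and replicate 1 lowest. The shares of all features with these orders were not counted. By more than log2 1, 14 genes (45.2%, against 12% of features) were higher on gland replicate 1 than on replicate 3, among them Srp54k, gammaCOP, Sec63, Srp72, Sec24AB and Sec31. Across 30 genes the gland gap (replicate 1 minus 3) and the epidermis gap (replicate 3 minus 1) had a Pearson r of 0.93, and across 6258 features an r of 0.55. Both are descriptions across genes that share the same 4 arrays, not independent points. The signal peptidase genes lay toward the low end of this relation, with epidermis gaps below 0 and gland gaps under log2 1 in size.

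**Figure D4:**
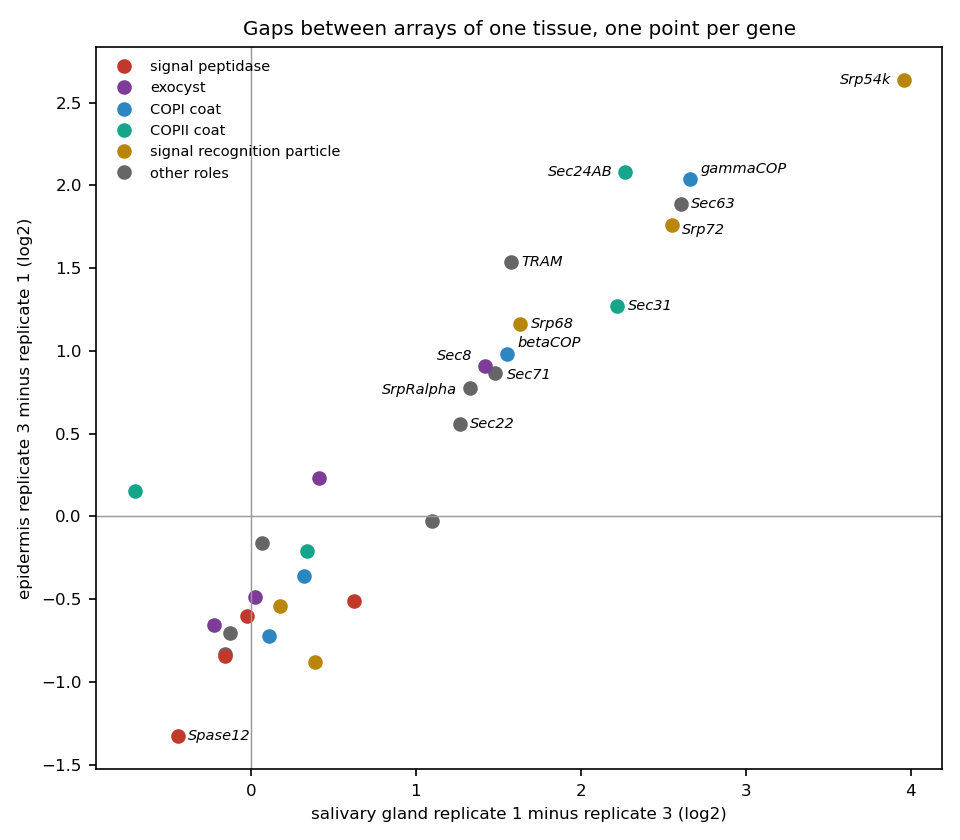
Gland replicate 1 minus replicate 3 (horizontal axis, log2) against epidermis replicate 3 minus replicate 1 (vertical axis, log2), 1 point per gene for the 30 tested genes with all 4 values, coloured by role. Points run from Spase12 at the lower left to Srp54k at the upper right, and Pearson's r over the 30 genes was 0.93.

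Other genes of the pathway that the symbol rule does not reach were taken from 6 lists with 88 genes, of which 64 were measured and 60 tested. In the gland 33 of the 60 were higher, 2 lower and 25 not called, with a median of 0.87, against 7.72% of all features higher and 10.3% lower. In the midgut 4 were higher and 13 lower, against 14.2% and 15.5% of features. The same shares stand behind the count of each list. Their gland differences come from the same gland arrays on which the fat body markers were read. The part of fat body RNA in these differences was not tested.

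Among 16 tested genes for sugar attachment and translocon partners, 8 were higher in the gland and 0 lower. wol, which makes the glucose donor for the sugar tree, was higher by 2.71 (SE 0.26, adjusted p = 1.85e-06), with the glucosidase II subunit gene GCS2beta at 1.63 (SE 0.29), the oligosaccharyltransferase catalytic gene Stt3B at 1.50 (SE 0.43, adjusted p = 0.0251) and the Sec62 gene Trp1 at 1.38 (SE 0.23). The second catalytic gene, Stt3A, stood at -0.14 (SE 0.16, adjusted p = 0.598). Of 11 folding genes of the endoplasmic reticulum, 6 were higher and 1 lower, with the disulfide isomerase gene Pdi at 1.87 (SE 0.43, adjusted p = 0.00577) and the BiP chaperone gene Hsc70-3 at 1.55 (SE 0.24, adjusted p = 0.00029). The lower gene was prtp, a thioredoxin-domain protein, at -1.72 (SE 0.22, adjusted p = 4.14e-05).

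Of 13 tested vesicle formation partners, 9 were higher and 0 lower. The Golgi stacking protein gene Grasp65 differed by 2.70 (SE 0.19, adjusted p = 5e-08), the p24 cargo receptor gene CHOp24 by 2.24 (SE 0.21, adjusted p = 1.92e-06) and the collagen export receptor gene Tango1 by 0.87 (SE 0.23, adjusted p = 0.0141). Among 10 Golgi O-glycosylation genes 6 were higher and 1 lower. They were led by the mucin-type glycosyltransferase genes Pgant6 at 3.43 (SE 0.21, adjusted p = 1.42e-08) and Pgant1 at 3.34 (SE 0.31). This list includes Pgant9, which is also on the salivary gland marker list, and sll, a transporter gene rather than a transferase gene. Among 8 genes of degradation from the endoplasmic reticulum 4 were higher and 0 lower, with the ubiquitin ligase gene sip3 at 1.66 (SE 0.25, adjusted p = 0.000318). Of 2 tested regulators of the unfolded protein response, Atf6 and crc, limma called 0, and 0 had an unadjusted p under 0.05.

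**Figure D5:**
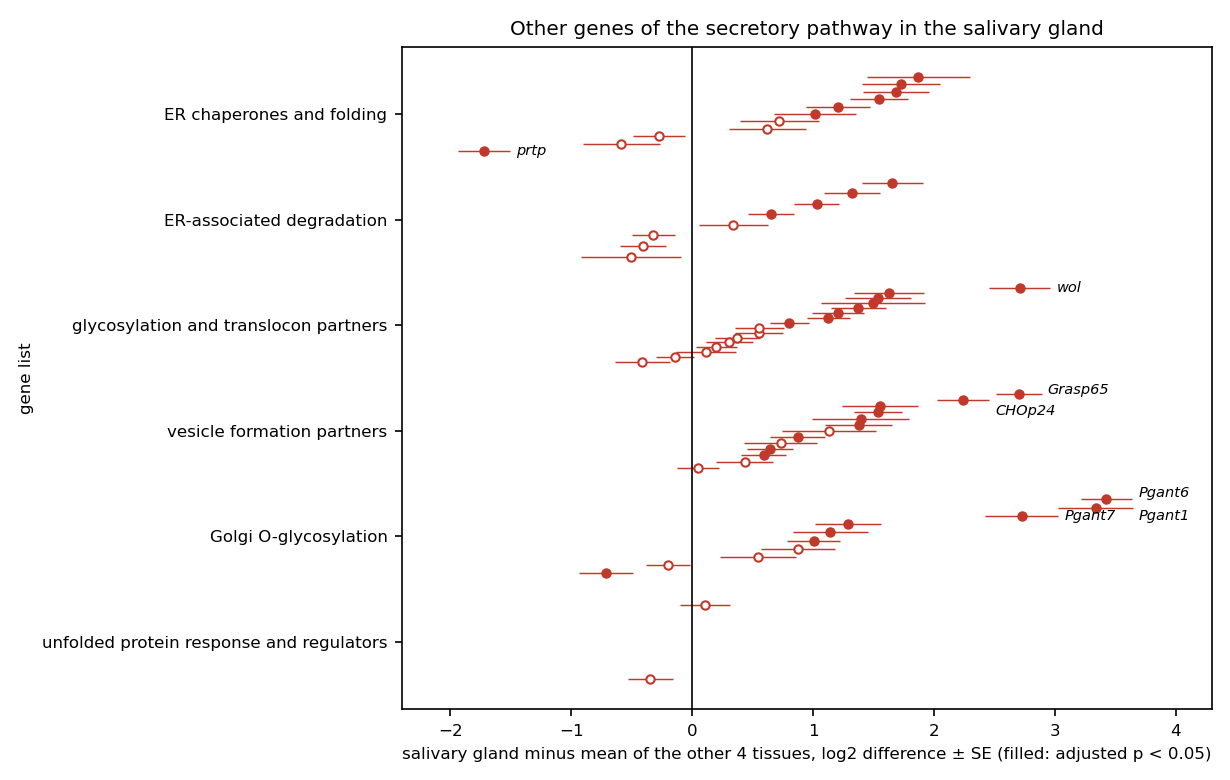
Difference of the gland from the mean of the other 4 tissues (horizontal axis, log2 with standard errors) for 60 further pathway genes in 6 lists, with filled points past the adjusted threshold. Of the filled points 33 lie to the right of 0 and 2 to the left, among them prtp.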

How the data were processed

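The deposited values were log2 ratios, 1 column per array for 15 arrays, and per the labels they set tissue RNA (Cy5) against whole animal RNA (Cy3). The log2 scale was read from the values, in which 892 to 1126 pairs of distinct values per array differed by 1 to within 1.5e-06, against 1 to 5 pairs that differed by the natural log of 2. Not given in the sources used here are the normalization, the scanner, how background was corrected and why some cells are empty. The table held 20000 rows, of which 14051 were measured. Through the array's annotation 10817 of these had 1 gene, 227 several (6 with a matching symbol, left out) and 3007 none. Rows of 1 gene were averaged, giving 13128 features.

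Each array was centred on its median. One mean per tissue was fitted per feature with limma's method (version 3.58.1 in R 4.3.3), with variances moderated over all 15 arrays (prior degrees of freedom 5.965). A feature entered a comparison if measured on at least 2 of 3 arrays per tissue. P-values were adjusted over all features of a comparison, and they measure the spread between samples. That spread was pooled over the tissues for each feature, so gland errors also draw on tissues with less spread. For the genes described here the median SD was 0.49 in gland, 0.24 in midgut and 0.23 in the nervous system. Gland standard errors and p-values can therefore be too small where the gland replicates lay far apart. The code was tested on simulated data. Tables and plots used python 3.11.15, pandas 2.3.3, numpy 2.4.6 and matplotlib 3.10.9.

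The genes, lists and alternatives were chosen with earlier results of these data known. Values on all arrays are printed for Spase25, Spase22-23, twr and TRAM, the largest and smallest gland difference per role, and genes called by at least log2 1 in another tissue. No genome build is named, so no coordinates are given.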

Additional observations from a re-analysis of the deposited data

Results flagged for a closer look

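In 9 genes limma called the gland above whole animal and the midgut, their lowest tissue, below it, and the gland minus midgut difference passed too. The log2 differences were 4.31 for Spase25, 3.61 for Spase22-23, 3.30 for TRAM, 3.24 for twr, 2.95 for Ostgamma, 2.20 for OstDelta, 1.94 for Sec13, 1.77 for epsilonCOP and 1.58 for Sec61gamma. SrpRalpha was called above whole animal in the gland and below it in the nervous system, its lowest tissue, with a difference of 2.05. The sides relative to whole animal rest on the centring of each array. Over all features, 16.9% were called above whole animal in gland, 15.1% below it in midgut and 21.3% below it in the nervous system. The gland was higher than the midgut in 6.23%, and the share that met such conditions together was not counted.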

How the results depend on the processing

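Counts in the gland and the midgut against the other 4 tissues stayed within 1.5 times under the alternatives run. Of the 18 gland calls 14 held in every alternative fit that tested them, and of the 12 midgut calls 9, while 0 of the 5 nervous system calls did, and 0 of these 35 calls reversed. Requiring at least log2 1, which is not counted among those fits, left 16 gland and 8 midgut calls. Under array weights there were 2 calls in wing disc (0 before) and 10 in the nervous system (5 before). The nervous system count was 1 with a common spread, with quantile normalization or with calls of at least log2 1. Against whole animal, array weights gave 13 calls in wing disc (8 before), 23 in midgut (12 before) and 14 in the nervous system (9 before), quantile normalization 20 in midgut, and a common spread 5 in wing disc. Requiring log2 1 left 1 in epidermis (3 before), 6 in midgut, 3 in wing disc and 5 in the nervous system. Leaving out arrays gave counts of 15 to 23 among tissues, 14 to 23 in gland (lowest without gland replicate 1, highest without replicate 3), 9 to 13 in midgut, 1 to 6 in the nervous system, 0 to 2 in wing disc and 0 to 0 in epidermis. Between gland and single tissues the counts were 8 to 15 for epidermis, 13 to 21 for wing disc, 15 to 21 for midgut and 13 to 21 for the nervous system. Against whole animal they were 1 to 4 in epidermis, 17 to 20 in gland, 3 to 12 in wing disc, 6 to 16 in midgut and 4 to 11 in the nervous system. With the replicate number as a block 18 genes were called in gland, 12 in midgut (11 shared, with betaCOP lost at adjusted p = 0.0588) and 16 among tissues. Deviations from the tissue means correlated at -0.49 to 0.35 (median 0.03) between same-numbered arrays of different tissues. Between differently numbered arrays they correlated at -0.43 to 0.58 (median -0.03). Replicate 3 had the fewest measured rows in every tissue, from 7747 to 10369. These ranges cannot decide whether arrays of 1 number shared a batch. The causes of the shifts in the counts were not tested.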

Other observations

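Some pathway genes peaked outside the gland. prtp was higher in the midgut than in the other 4 tissues by log2 3.82 (SE 0.22, adjusted p = 1.91e-09, limma), the opposite side from ERp60, a disulfide isomerase gene of the same list, at -1.59 (SE 0.27, adjusted p = 0.000302). Stt3A, a catalytic subunit gene of oligosaccharyltransferase, was higher in wing disc by 1.10 (SE 0.19, adjusted p = 0.000739) and in the nervous system by 0.60 (SE 0.16, adjusted p = 0.0144) and differed by -1.44 in midgut (SE 0.16, adjusted p = 5.41e-06). Alg10, which adds the last glucose to the sugar tree, was higher in wing disc by 1.51 and differed by -1.38 in midgut (SE 0.23, adjusted p = 0.000238).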
